A study of Mus musculus with 8 samples.

Results

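The 54 genes described here are interferon-stimulated genes and interferon receptor chains, out of 55450 annotated genes counted by bulk RNA sequencing in thymic epithelial cells (TECs) of mouse embryos at embryonic day 17. They were chosen by gene symbol, from a list made after these libraries had shown interferon genes at higher levels in CCL21+RANK- TECs, relative to CCL21-RANK- TECs, so that comparison is described below and not tested. By role, 36 are type I targets (genes with a textbook place in the response to interferon alpha and beta), 11 are gamma-induced GTPases, 5 are receptor chains and 2, Irf1 and Socs1, are regulators that respond to interferon gamma. All 54 passed the filter on low counts.

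The embryos carried a RANK-Venus transgene, which reports Tnfrsf11a (RANK), and tdTomato knocked in at Ccl21a, which encodes the chemokine CCL21. Both reporters were present in every group. CD45-EpCAM+ cells, which are epithelial cells without the leukocyte marker CD45, were sorted into tdTomato+Venus- (CCL21+RANK-, n = 3), tdTomato-Venus+ (CCL21-RANK+, n = 3) and tdTomato-Venus- (CCL21-RANK-, n = 2) TECs, with no treatment. The study asked whether medullary TECs that express CCL21 are the same cells as the RANK-expressing progenitors known to give rise to Aire-expressing TECs, and profiled both beside TECs with neither reporter. The libraries held between 42751858 and 71625319 estimated counts. Levels are RPKM, estimated counts scaled to library size and to exon length, in replicate order, with the SD over libraries where a mean is given. In bulk RNA, fewer cells with a transcript and less transcript per cell cannot be told apart.

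Interferons alpha and beta bind the receptor chains Ifnar1 and Ifnar2, and interferon lambda binds Ifnlr1 with Il10rb. Both receptors signal through Jak kinases to a complex that holds Stat2 and Irf9 and binds the interferon-stimulated response element (ISRE) in target promoters. Interferon gamma binds Ifngr1 and Ifngr2 and acts through the gamma-activated site (GAS) to induce Irf1, the guanylate-binding proteins (GBPs) and the immunity-related GTPases (IRGs). In the thymus, tonic interferon production, by Aire-expressing TECs among other cells, is known to keep interferon-stimulated genes expressed without infection.

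The promoters are shown first, since ISRE and GAS sites were looked for there. RefSeq promoter sequence (GRCm38.p6) was at hand for 40 of the 54 genes, in 44 windows of the 250 bases before a start site. The ISRE core GAAANNGAAA, read on both strands with overlapping matches counted, was found in 17 of 44 windows (38.6%), against 978 of 32851 windows of the same length over all genes (2.98%). The GAS letters TTCNNNGAA, which read the same on both strands, were found in 9 of 44 windows (20.5%) and in 2306 of all windows (7.02%). By class, 7 of 7 gamma-induced GTPases, 9 of 26 type I targets, 1 of the 2 regulators and 0 of 5 receptors with a promoter entry had an ISRE core. A match is a match of letters, and a window without one says only that these letters are not in it. The 180 bases before the start are printed 5′ to 3′ on the gene's strand for 5 genes described below and for Irgm2, the neighbour of Igtp, with the letters of every ISRE or GAS match in capitals. None of these stretches overlaps an annotated exon.
Isg15, chr4:156200819-156200998, minus strand: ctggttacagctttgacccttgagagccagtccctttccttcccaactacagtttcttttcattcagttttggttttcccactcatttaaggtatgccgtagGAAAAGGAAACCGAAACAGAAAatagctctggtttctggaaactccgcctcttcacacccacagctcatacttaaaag
Igtp, chr11:58199376-58199555, plus strand: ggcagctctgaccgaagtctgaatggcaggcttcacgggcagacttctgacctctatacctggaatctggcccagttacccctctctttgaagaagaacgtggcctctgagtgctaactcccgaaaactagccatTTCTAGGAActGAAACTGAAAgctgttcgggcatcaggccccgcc
Irgm2, chr11:58214797-58214976, plus strand: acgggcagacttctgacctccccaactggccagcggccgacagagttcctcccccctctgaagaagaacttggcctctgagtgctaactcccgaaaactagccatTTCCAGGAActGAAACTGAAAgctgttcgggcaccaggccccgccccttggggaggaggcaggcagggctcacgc
Irf1, chr11:53769834-53770013, plus strand: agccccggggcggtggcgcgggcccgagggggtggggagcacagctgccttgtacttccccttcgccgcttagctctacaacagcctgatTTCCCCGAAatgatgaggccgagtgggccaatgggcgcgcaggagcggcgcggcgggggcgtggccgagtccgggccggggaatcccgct
Socs1, chr16:10785537-10785716, minus strand: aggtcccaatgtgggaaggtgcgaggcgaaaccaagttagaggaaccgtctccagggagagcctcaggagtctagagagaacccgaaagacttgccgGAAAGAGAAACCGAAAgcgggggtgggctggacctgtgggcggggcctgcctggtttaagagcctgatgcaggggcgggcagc
Ifngr2, chr16:91546879-91547058, plus strand: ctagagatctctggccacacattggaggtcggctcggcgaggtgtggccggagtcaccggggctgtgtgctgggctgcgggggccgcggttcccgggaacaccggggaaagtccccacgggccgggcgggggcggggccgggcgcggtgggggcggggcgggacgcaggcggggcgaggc

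Isg15 had 3 overlapping ISRE cores between 78 and 57 bases before the start. In Igtp and Irgm2 a GAS match lay just before an ISRE core, and the stretches of both genes share a run of 38 bases that ends within the GAS match. Irf1 had a GAS match and no ISRE core in the window printed, and its other window, chr11:53770223-53770472, had neither. Socs1 had 2 overlapping ISRE cores, and Ifngr2 had no match to either.

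**Figure D1:**
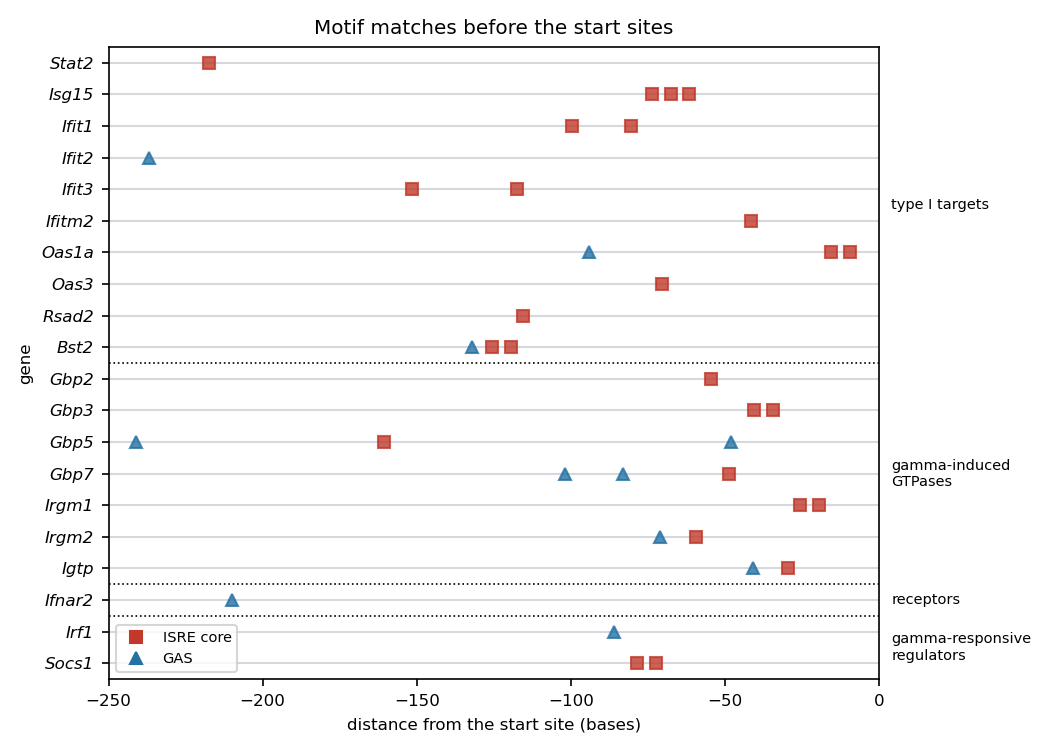
Positions of motif matches in the 250 bases before the start site, for the members with a match (rows, by class). Squares are ISRE cores and triangles GAS matches, placed at their centres on an axis of bases from the start site. All 7 GTPases with a promoter entry have a square, and the 1 receptor shown, Ifnar2, has only a triangle.

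The sorted cells had the markers of TECs. All 9 TEC markers listed, among them Epcam, Foxn1 and Krt8, were above 3 counts in every library. Their levels were not even, however, and they summed to 5453, 5603 and 5481 RPKM over the CCL21+RANK- replicates, 1826, 2100 and 1710 over the CCL21-RANK+ replicates and 4572 and 4378 over the CCL21-RANK- pair. The keratin Krt18 was at 2053, 2286 and 2441 RPKM over the CCL21+RANK- replicates, 390, 477 and 378 over the CCL21-RANK+ replicates and 2347 and 2252 over the CCL21-RANK- pair. Psmb11, a proteasome subunit of cortical TECs, was at 209, 295 and 319 RPKM over the CCL21+RANK- replicates, 10.7, 32.5 and 16.8 over the CCL21-RANK+ replicates and 318 and 293 over the CCL21-RANK- pair, whereas Epcam was highest in CCL21-RANK+ TECs at 140.1, 122 and 116 RPKM. Aire, on the same list, also went the other way, at 117, 93.5 and 109 RPKM in CCL21-RANK+ TECs and at most 0.897 elsewhere. The lower TEC marker sum in CCL21-RANK+ TECs thus moved with the lower type I targets described below, and its part in them was not tested. Tnfrsf11a was at 99.4, 92.5 and 103 RPKM in CCL21-RANK+ TECs and at most 10.5 RPKM elsewhere, and Ccl21a was at 579, 385 and 293 RPKM in CCL21+RANK- TECs, 136, 95.3 and 75.01 in CCL21-RANK+ and 7.48 and 8.69 in CCL21-RANK- TECs. Thus the cells sorted as tdTomato-Venus+ were not without Ccl21a transcript.

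Markers of other cell types were not evenly spread. The 11 macrophage or dendritic cell markers summed to 72.2, 21.9 and 28.3 RPKM over the CCL21-RANK+ replicates, where Lyz2 was the most abundant, and to at most 1.59 RPKM in the other libraries, where between 2 and 5 of the 11 were at 0 counts. The 8 thymocyte markers summed to 17.8, 8.73 and 15.7 RPKM in CCL21-RANK+, 10.8, 4.51 and 5.52 RPKM in CCL21+RANK-, and 3.69 and 2.98 RPKM in CCL21-RANK- TECs. The 4 mesenchyme markers, led by Col1a1, summed to 28.7, 12.4 and 20.0 RPKM in CCL21-RANK+ TECs and to at most 2.99 RPKM elsewhere. Col1a1 and Pdgfrb carried this rise. Pdgfra had a lower mean in CCL21-RANK+ (0.063 RPKM) than in CCL21+RANK- TECs (0.203). Col3a1 was nearly level between CCL21-RANK+ (0.816) and CCL21-RANK- TECs (0.777). The 3 B cell and 3 endothelial markers also had their highest sums, up to 1.26 and 1.67 RPKM, in CCL21-RANK+ TECs. The 4 parathyroid markers, with Chga the most abundant in each, summed to 7351, 1944 and 1875 RPKM over the CCL21+RANK- replicates and to at most 25.9 RPKM in the others. Replicate 1 of CCL21-RANK+ and replicate 1 of CCL21+RANK- thus stood apart in macrophage and in parathyroid markers. The counts of members called are also given below without each of these libraries. Parathyroid marker RNA was high in every CCL21+RANK- library, however, so leaving out replicate 1 does not remove it. The paper describes CCL21-expressing parathyroid cells beside the embryonic thymus. The part of such cells in the levels of the 54 genes was not tested.

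Summed over a class, the type I targets were at 1556, 1607 and 1674 RPKM in CCL21+RANK- TECs, 774, 799 and 758 in CCL21-RANK+ TECs, and 1080 and 1318 in CCL21-RANK- TECs. Here the 3 populations did not overlap, and CCL21-RANK+ TECs were the lowest. The gamma-induced GTPases summed to 155, 158 and 159 RPKM in CCL21+RANK-, 84.1, 75.9 and 70.8 RPKM in CCL21-RANK+, and 70.9 and 76.1 RPKM in CCL21-RANK- TECs, so that the latter 2 populations overlapped. The 5 receptor chains summed to 70.3, 65.4 and 65.7 RPKM in CCL21+RANK-, 63.0, 68.5 and 68.8 RPKM in CCL21-RANK+, and 46.6 and 49.7 RPKM in CCL21-RANK- TECs, with CCL21-RANK- TECs the lowest and the other populations overlapping. Ifitm3 alone made up a large part of the first sum, and Ifngr2 a large part of the receptor sum in CCL21-RANK+ TECs. Counted chain by chain, 4 of 5 receptors were highest in CCL21+RANK- TECs and 3 were lowest in CCL21-RANK+ TECs. By group mean, 43 of the 54 genes were highest in CCL21+RANK- TECs, 9 in CCL21-RANK+ TECs and 2, Ifi27 and Ifitm2, in CCL21-RANK- TECs, while 34 were lowest in CCL21-RANK+ TECs.

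**Figure D2:**
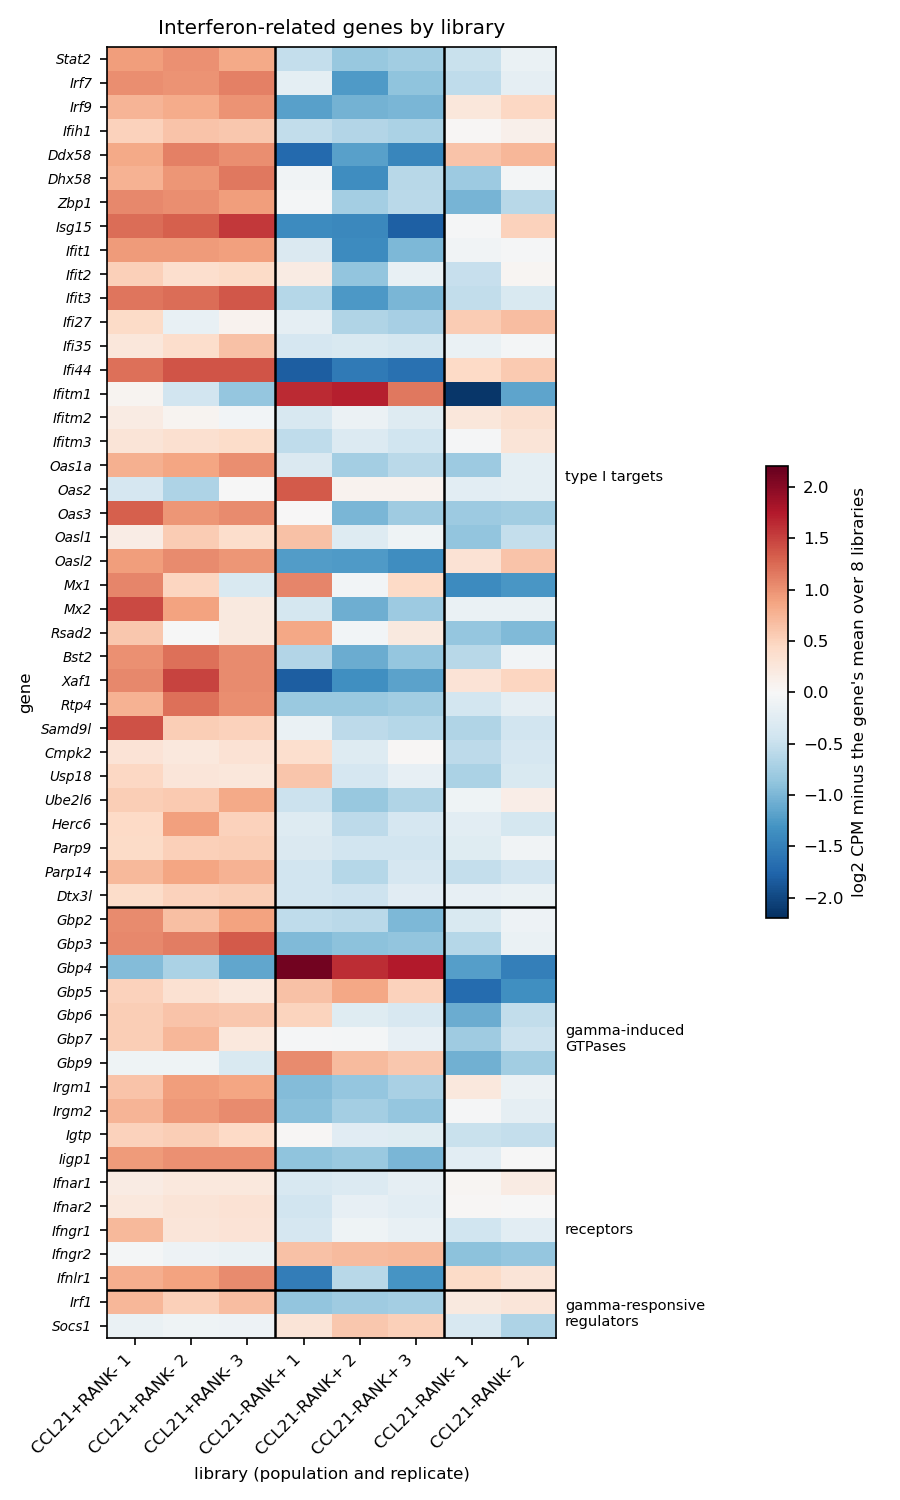
Levels of the 54 genes (rows, by class) in the 8 libraries (columns), as log2 CPM (counts scaled to library size) minus the gene's mean over the libraries; red is above and blue below that mean. Most rows are red in the CCL21+RANK- columns and blue in the CCL21-RANK+ columns; Ifitm1, Gbp4, Gbp9, Ifngr2 and Socs1 are highest in the CCL21-RANK+ columns.

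CCL21-RANK+ TECs were first compared with CCL21+RANK- TECs. In this comparison a gene was called at a Benjamini-Hochberg adjusted p under 0.05 (edgeR quasi-likelihood test over 21451 genes), a fold over 1.5 and an RPKM over 1 in the higher group. Of the 54 genes, 38 were lower and 5 were higher in CCL21-RANK+ TECs, against 15.5% and 15.0% of all genes tested. The median log2 fold change was -1.24, and over all genes tested it was 0.11. Without CCL21-RANK+ replicate 1 the counts were 39 lower and 5 higher, and without CCL21+RANK- replicate 1 they were 35 and 4. The CCL21+RANK- libraries also entered the comparison that drew attention to these genes, so the direction here is not independent of how they were chosen.

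Type I targets made up most of the lower genes. Of 36, 28 were lower, 1 (Ifitm1) was higher and 7 were not called, with a median log2 fold change of -1.36. Of all genes tested, 15.5% were lower and 15.0% higher. All 3 transcription factors of the class were lower: Irf9, the DNA-binding partner of the STATs (log2 fold change -1.94, SE 0.11, adjusted p = 1.13e-06), Irf7, which amplifies interferon production (log2 fold change -1.77, SE 0.23, adjusted p = 1.69e-04), and Stat2 (log2 fold change -1.64, SE 0.13, adjusted p = 5.30e-06). All 4 sensors of foreign nucleic acid were lower too, namely Ddx58 (RIG-I), Ifih1 (MDA5), their relative Dhx58 and the Z-DNA sensor Zbp1.

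Ifi44, an interferon-induced antiviral protein, had the lowest fold change of all 54 genes. It was at 11.2, 12.5 and 12.6 RPKM over the CCL21+RANK- replicates, 1.29, 1.57 and 1.48 over the CCL21-RANK+ replicates and 6.48 and 7.18 over the CCL21-RANK- pair. The 3 CCL21-RANK+ libraries lay below every other library, and the level was 8.37-fold lower than that of CCL21+RANK- TECs (log2 fold change -3.07, SE 0.12, adjusted p = 2.06e-07).

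Isg15, a ubiquitin-like protein that is joined to other proteins during the antiviral response and whose promoter with 3 ISRE cores is printed above, was at 145, 155 and 184 RPKM over the CCL21+RANK- replicates, 23.1, 22.5 and 17.4 over the CCL21-RANK+ replicates and 60.6 and 88.2 over the CCL21-RANK- pair. The groups did not overlap, and the level in CCL21-RANK+ TECs was 7.67-fold lower than that of CCL21+RANK- TECs (log2 fold change -2.94, SE 0.18, adjusted p = 1.59e-06). Ube2l6 and Herc6, the conjugating enzyme and ligase of ISG15, were also lower (-1.32 and -1.09 on the log2 scale). Usp18, the enzyme that removes ISG15, was not called (log2 fold change -0.25, SE 0.23, adjusted p = 0.396) and its libraries overlapped, but without CCL21-RANK+ replicate 1 it was called lower (-0.60).

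Xaf1, an interferon-induced factor that favours cell death, was at 4.25, 5.76 and 4.21 RPKM over the CCL21+RANK- replicates, 0.494, 0.718 and 0.819 over the CCL21-RANK+ replicates and 2.49 and 2.80 over the CCL21-RANK- pair. No CCL21-RANK+ library reached the lowest library of the other populations (log2 fold change -2.81, SE 0.23, adjusted p = 6.90e-06). Ddx58, which senses viral RNA, was at 15.4, 18.7 and 17.6 RPKM over the CCL21+RANK- replicates, 2.58, 3.74 and 3.13 over the CCL21-RANK+ replicates and 13.3 and 14.4 over the CCL21-RANK- pair, which made CCL21-RANK+ TECs 5.47-fold lower than CCL21+RANK- TECs (log2 fold change -2.45, SE 0.15, adjusted p = 1.43e-06). Its CCL21+RANK- and CCL21-RANK- libraries lay closer to each other than either did to the CCL21-RANK+ libraries.

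Ifitm3, a membrane protein that blocks the entry of viruses, was the most abundant of the 54 genes per length, at 756, 789 and 819 RPKM over the CCL21+RANK- replicates, 420.1, 500.1 and 457 over the CCL21-RANK+ replicates and 611 and 758 over the CCL21-RANK- pair. The CCL21-RANK+ libraries were below all others (log2 fold change -0.78, SE 0.12, adjusted p = 4.84e-04 against CCL21+RANK-). Its neighbour Ifitm2 was at 88.2, 81.8 and 74.8 RPKM over the CCL21+RANK- replicates, 60.8, 71.1 and 64.1 over the CCL21-RANK+ replicates and 92.9 and 100.4 over the CCL21-RANK- pair. Although these groups did not overlap, the difference from CCL21+RANK- TECs was under 1.5-fold and was not called (log2 fold change -0.32, SE 0.10, adjusted p = 0.0265).

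Oasl2, of the oligoadenylate synthetase family, was at 61.4, 67.1 and 63.7 RPKM over the CCL21+RANK- replicates, 13.8, 13.7 and 12.6 over the CCL21-RANK+ replicates and 40.6 and 50.1 over the CCL21-RANK- pair. CCL21-RANK+ TECs were 4.79-fold below CCL21+RANK- TECs (log2 fold change -2.26, SE 0.11, adjusted p = 6.55e-07). Ifi35, an interferon-induced leucine zipper protein, was at 45.6, 50.2 and 60.4 RPKM over the CCL21+RANK- replicates, 29.8, 30.5 and 29.3 over the CCL21-RANK+ replicates and 34.7 and 37.5 over the CCL21-RANK- pair, and it was lower by a smaller amount (log2 fold change -0.80, SE 0.11, adjusted p = 2.76e-04).

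The remaining type I targets are described by family. The IFIT genes on chromosome 19 encode proteins that bind foreign RNA. Ifit3 was at 45.6, 47.1 and 51.9 RPKM over the CCL21+RANK- replicates, 12.8, 8.13 and 9.84 over the CCL21-RANK+ replicates and 13.7 and 15.8 over the CCL21-RANK- pair, and Ifit1 was at 17.7, 17.8 and 17.4 RPKM over the CCL21+RANK- replicates, 7.36, 3.39 and 4.57 over the CCL21-RANK+ replicates and 8.72 and 9.07 over the CCL21-RANK- pair. Both were lower than in CCL21+RANK- TECs with no overlap (-2.23 and -1.79). Ifit2 was at 10.9, 9.63 and 10.1 RPKM over the CCL21+RANK- replicates, 8.52, 4.02 and 6.64 over the CCL21-RANK+ replicates and 5.20 and 7.71 over the CCL21-RANK- pair, and its call (log2 fold change -0.67, SE 0.25, adjusted p = 0.0419) was lost with DESeq2 size factors (-0.57) and without any 1 of several libraries, among them CCL21-RANK+ replicate 2 (-0.42). Ifi27, another interferon-induced gene, was lower as well (-0.65), a call that was lost with DESeq2 size factors (-0.55) and without CCL21+RANK- replicate 1 (-0.48) or CCL21-RANK+ replicate 2 (-0.57) or 3 (-0.51).

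Among the oligoadenylate synthetases, enzymes that respond to double-stranded RNA, Oas1a (-1.48) and Oas3 (-1.70) were lower and Oas2 (log2 fold change 1.89, SE 0.77, adjusted p = 0.0624) was not called. Bst2 (tetherin), which holds budding viruses at the cell surface, was at 56.96, 65.3 and 57.8 RPKM over the CCL21+RANK- replicates, 17.6, 12.9 and 15.3 over the CCL21-RANK+ replicates and 18.2 and 26.7 over the CCL21-RANK- pair (log2 fold change -1.97, SE 0.17, adjusted p = 1.08e-05), and its CCL21-RANK+ libraries were the lowest. Rtp4 (-1.89), Mx2 (-1.94) and Samd9l (-1.41) were lower too. Parp9 and Dtx3l, partners in one complex whose genes overlap on opposite strands, had close log2 fold changes (-0.88 and -0.86), and Parp14 was lower by more (-1.27).

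Ifitm1 went the other way from Ifitm2 and Ifitm3. It was at 2.45, 1.63 and 1.08 RPKM over the CCL21+RANK- replicates, 8.20, 8.62 and 5.79 over the CCL21-RANK+ replicates and 0.177 and 0.787 over the CCL21-RANK- pair. All 3 CCL21-RANK+ libraries were above the rest, and the level was 4.37-fold higher than that of CCL21+RANK- TECs (log2 fold change 2.13, SE 0.50, adjusted p = 0.0052). Mx1, an antiviral GTPase of the dynamin family, was at 2.09, 1.34 and 0.702 RPKM over the CCL21+RANK- replicates, 2.09, 0.885 and 1.30 over the CCL21-RANK+ replicates and 0.271 and 0.304 over the CCL21-RANK- pair. For Mx1 these first 2 groups overlapped (log2 fold change 0.05, SE 0.43, adjusted p = 0.935), and the sign of this small difference turned without CCL21+RANK- replicate 3 (-0.27) or CCL21-RANK+ replicate 1 (-0.33). The other type I targets that were not called were Oas2, Oasl1, Rsad2, Cmpk2, Usp18 and Ifitm2. Oas2 stood at or under 0.436 RPKM in every library.

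**Figure D3:**
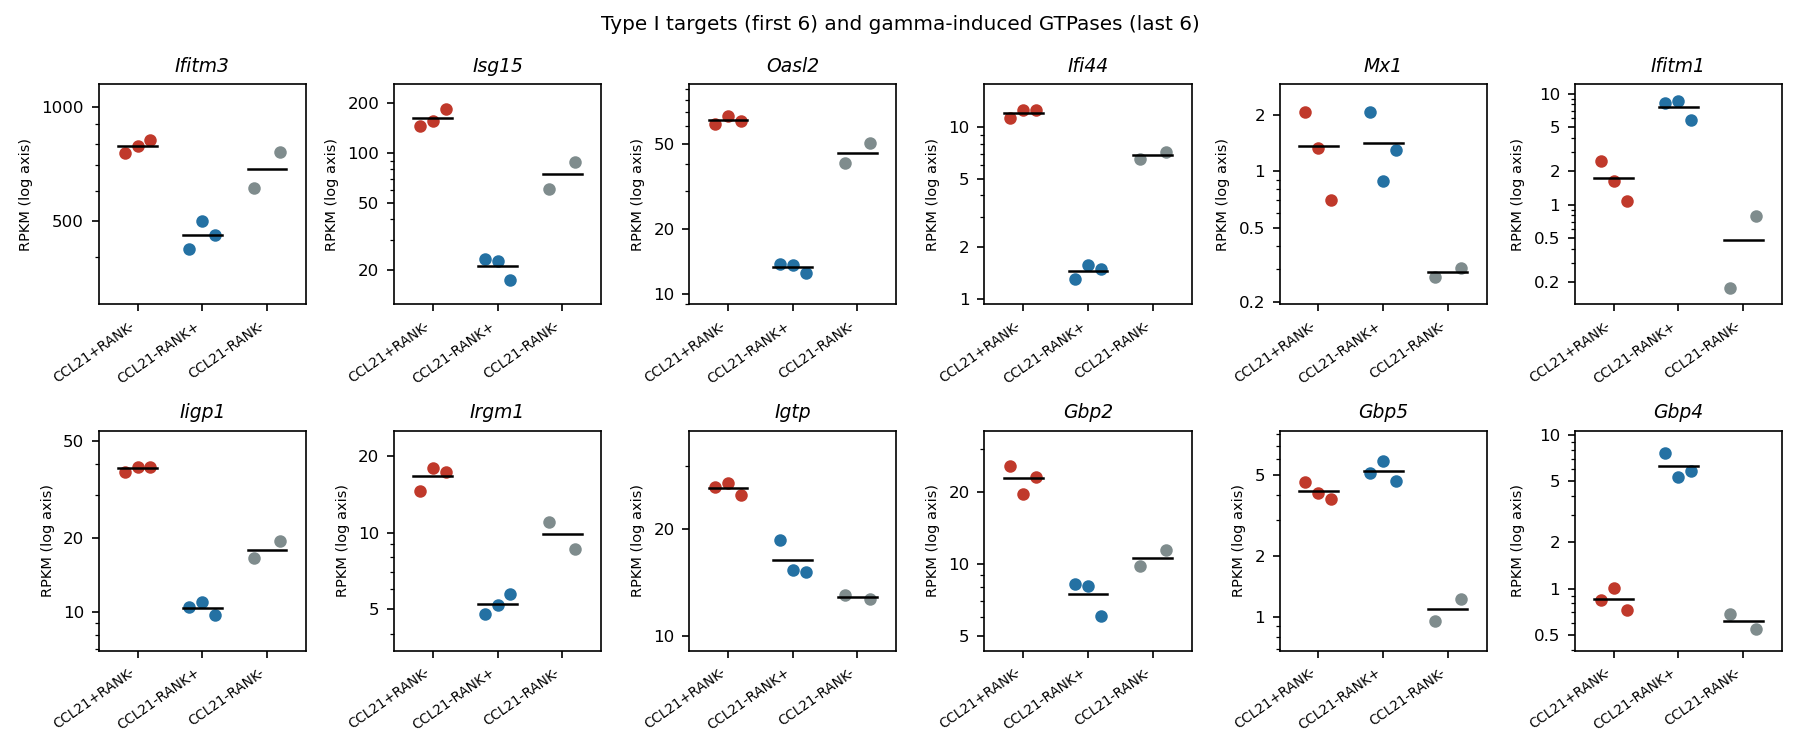
RPKM (log axis, a range of its own in each panel) of 6 type I targets and 6 gamma-induced GTPases in every library, by population. Points are libraries and lines are group means; CCL21-RANK+ points are the lowest for Isg15, Oasl2, Ifi44 and Iigp1 and the highest for Ifitm1, Gbp4 and Gbp5.

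The gamma-induced GTPases act against intracellular pathogens, and they did not move as one group. Of 11, 7 were lower in CCL21-RANK+ TECs, 2 (Gbp4 and Gbp9) were higher and 2 (Gbp5 and Gbp6) were not called, with a median log2 fold change of -0.67. Over all genes tested 15.5% were lower and 15.0% higher, so the number of GTPases higher was near that of genes at large. All 4 IRGs were lower. Among the 7 GBPs, 3 were lower and 2 were higher. One of the 3, Gbp7 (-0.61), lost its call with DESeq2 size factors (-0.52), upper-quartile factors (-0.53), and without CCL21+RANK- replicate 2 (-0.46) or CCL21-RANK+ replicate 3 (-0.52).

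Iigp1, an IRG that attacks the vacuoles of pathogens, was at 37.3, 39.1 and 39.1 RPKM over the CCL21+RANK- replicates, 10.4, 10.9 and 9.66 over the CCL21-RANK+ replicates and 16.5 and 19.4 over the CCL21-RANK- pair. The groups did not overlap and the CCL21-RANK+ level was 3.73-fold lower than the CCL21+RANK- level (log2 fold change -1.90, SE 0.10, adjusted p = 9.08e-07). Irgm1, a regulator of the other IRGs, was at 14.7, 17.9 and 17.3 RPKM over the CCL21+RANK- replicates, 4.81, 5.20 and 5.73 over the CCL21-RANK+ replicates and 11.1 and 8.65 over the CCL21-RANK- pair, also without overlap (log2 fold change -1.67, SE 0.13, adjusted p = 6.12e-06). Irgm2 followed with a log2 fold change of -1.79.

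Igtp (Irgm3), which shares the 38-base promoter run with Irgm2, was at 26.2, 26.9 and 24.9 RPKM over the CCL21+RANK- replicates, 18.6, 15.3 and 15.2 over the CCL21-RANK+ replicates and 13.03 and 12.7 over the CCL21-RANK- pair. Unlike the other 3 IRGs of the 54 genes it was lowest in CCL21-RANK- TECs, and its fall in CCL21-RANK+ TECs was close to the threshold (log2 fold change -0.67, SE 0.11, adjusted p = 6.19e-04). With DESeq2 size factors it was -0.58 and was no longer called. GENCODE places Igtp and Irgm2 on overlapping stretches of the same strand.

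Gbp2 was at 25.5, 19.6 and 23.1 RPKM over the CCL21+RANK- replicates, 8.28, 8.11 and 6.09 over the CCL21-RANK+ replicates and 9.78 and 11.5 over the CCL21-RANK- pair, with the CCL21-RANK+ libraries below the rest (log2 fold change -1.60, SE 0.15, adjusted p = 2.11e-05), and Gbp3 was lower as well (-2.13). By contrast, Gbp4 was at 0.838, 1.01 and 0.729 RPKM over the CCL21+RANK- replicates, 7.57, 5.35 and 5.80 over the CCL21-RANK+ replicates and 0.688 and 0.549 over the CCL21-RANK- pair, and all 3 CCL21-RANK+ libraries were above the rest (7.29-fold, log2 fold change 2.87, SE 0.19, adjusted p = 2.26e-06). Gbp9 was at 6.02, 6.03 and 5.06 RPKM over the CCL21+RANK- replicates, 13.3, 10.4 and 9.70 over the CCL21-RANK+ replicates and 3.04 and 3.73 over the CCL21-RANK- pair, again highest in the 3 CCL21-RANK+ libraries (log2 fold change 0.97, SE 0.15, adjusted p = 4.27e-04). Gbp5, which acts in inflammasome assembly, was at 4.65, 4.12 and 3.82 RPKM over the CCL21+RANK- replicates, 5.12, 5.91 and 4.68 over the CCL21-RANK+ replicates and 0.953 and 1.23 over the CCL21-RANK- pair. Its CCL21-RANK+ libraries were just above the CCL21+RANK- libraries without passing the test (log2 fold change 0.32, SE 0.14, adjusted p = 0.0835).

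Mouse GBP genes lie in a cluster on chromosome 3 and in another on chromosome 5, and with the 4 GBPs outside the 54 genes the clusters could be set side by side. On chromosome 3 (Gbp2, Gbp2b, Gbp3, Gbp5 and Gbp7), 3 of 5 genes were lower in CCL21-RANK+ TECs in this comparison and 0 were higher. On chromosome 5 (Gbp4, Gbp6, Gbp8, Gbp9, Gbp10 and Gbp11), 4 of 6 were higher and 0 were lower, although Gbp6 was called lower without CCL21-RANK+ replicate 1 (-0.91). Over all genes tested, 15.5% were lower and 15.0% were higher, and the difference between the clusters was not tested. Gbp8 and Gbp10 had log2 fold changes of 1.47 and 1.24. Gbp2b, with at most 8 counts outside CCL21-RANK+ TECs and 1.60, 0.646 and 0.716 RPKM in them, was not called because its group mean stayed under 1 RPKM. All 7 IRG genes counted, on chromosomes 11 and 18 and with Tgtp1 (-2.85), Tgtp2 (-2.03) and Ifi47 (-0.76) added, were lower. Ifi47, like Igtp, was lowest in CCL21-RANK- TECs, and the CCL21-RANK+ level was called higher than that of the CCL21-RANK- pair (log2 fold change 1.86, SE 0.22, adjusted p = 9.06e-05). GENCODE has Gbp4, Gbp8 and Gbp9 on overlapping stretches of one strand. Reads shared between these similar genes may have been divided among them by the authors' counting, so their separate levels are uncertain. In all, 8 of the 54 genes overlap a protein-coding gene on their own strand, and this limit may hold for each. Besides Gbp4 and Gbp9 they are Gbp6, Igtp, Irgm2, Irf9, Ifitm2 and Ifnar2.

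The receptor chains differed from each other in their order over the populations. Ifngr2, the signalling chain of the interferon gamma receptor, was at 22.4, 21.2 and 20.7 RPKM over the CCL21+RANK- replicates, 35.9, 37.5 and 37.95 over the CCL21-RANK+ replicates and 12.2 and 12.7 over the CCL21-RANK- pair. The 3 groups did not overlap, and the CCL21-RANK+ level (37.1 ± 1.08 RPKM, SD, n = 3) was 1.73-fold that in CCL21+RANK- TECs (log2 fold change 0.79, SE 0.09, adjusted p = 4.37e-05). Ifngr1, the chain that binds the ligand, was at 17.99, 13.2 and 13.4 RPKM over the CCL21+RANK- replicates, 8.33, 10.2 and 9.72 over the CCL21-RANK+ replicates and 7.99 and 9.24 over the CCL21-RANK- pair. It was highest in CCL21+RANK- TECs (log2 fold change -0.66, SE 0.15, adjusted p = 0.00426), and CCL21-RANK+ and CCL21-RANK- libraries overlapped. The Ifngr1 call was lost with DESeq2 size factors (-0.57), with upper-quartile factors (-0.58) and without CCL21+RANK- replicate 1 (-0.50).

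Ifnar1, a chain of the receptor for interferon alpha and beta, was at 18.9, 19.6 and 19.6 RPKM over the CCL21+RANK- replicates, 13.1, 13.6 and 14.6 over the CCL21-RANK+ replicates and 17.2 and 18.8 over the CCL21-RANK- pair. Its CCL21-RANK+ libraries were the lowest, with a difference under 1.5-fold that was not called (log2 fold change -0.49, SE 0.09, adjusted p = 0.00133). The CCL21+RANK- and CCL21-RANK- libraries of Ifnar1 nearly met, at 18.9 and 18.8 RPKM, and were not told apart by their spread. Ifnar2, the other chain, was at 8.27, 8.58 and 8.79 RPKM over the CCL21+RANK- replicates, 5.24, 6.21 and 5.96 over the CCL21-RANK+ replicates and 7.16 and 7.03 over the CCL21-RANK- pair. The order was the same and the difference was again not called (log2 fold change -0.56, SE 0.11, adjusted p = 0.00199), but it was without CCL21-RANK+ replicate 2 (-0.61).

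Ifnlr1, the chain that is particular to the interferon lambda receptor and is found mainly in epithelia, was at 2.73, 2.92 and 3.25 RPKM over the CCL21+RANK- replicates, 0.453, 0.948 and 0.547 over the CCL21-RANK+ replicates and 2.08 and 1.87 over the CCL21-RANK- pair. CCL21-RANK+ TECs were 4.57-fold below CCL21+RANK- TECs, with no overlap (log2 fold change -2.19, SE 0.28, adjusted p = 1.32e-04). Its partner Il10rb, which is not among the 54 genes, was lower too (log2 fold change -0.99, SE 0.11, adjusted p = 5.19e-05).

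Of the regulators, Irf1, a transcription factor induced through the GAS site, was at 76.5, 66.3 and 73.4 RPKM over the CCL21+RANK- replicates, 25.02, 26.5 and 27.2 over the CCL21-RANK+ replicates and 53.2 and 55.2 over the CCL21-RANK- pair, without overlap and lowest in CCL21-RANK+ TECs (log2 fold change -1.46, SE 0.10, adjusted p = 2.50e-06). Socs1, an inhibitor of JAK kinases, was instead highest in CCL21-RANK+ TECs, at 10.4, 10.8 and 10.8 RPKM over the CCL21+RANK- replicates, 14.1, 17.5 and 16.7 over the CCL21-RANK+ replicates and 9.03 and 7.15 over the CCL21-RANK- pair. CCL21-RANK+ TECs were 1.51-fold above CCL21+RANK- TECs (log2 fold change 0.60, SE 0.12, adjusted p = 0.0028), just past the threshold, and it lost the call without CCL21+RANK- replicate 1 (0.58) or without CCL21-RANK+ replicate 2 (0.54).

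**Figure D4:**
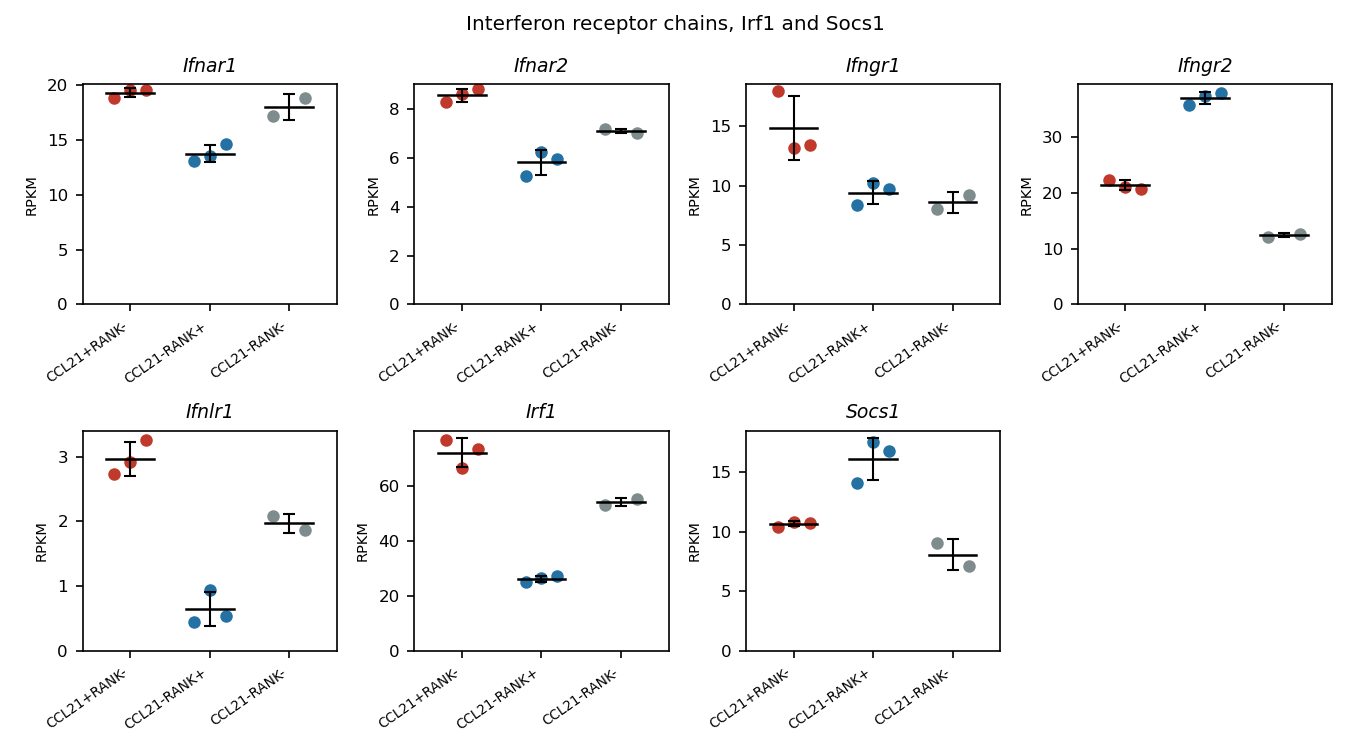
RPKM (linear axis from 0, a range of its own in each panel) of the 5 receptor chains, Irf1 and Socs1. Points are libraries; wide lines are group means and bars 1 SD. CCL21-RANK+ points are the highest for Ifngr2 and Socs1 and the lowest for Ifnar1, Ifnar2, Ifnlr1 and Irf1.

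CCL21-RANK+ TECs were next compared with CCL21-RANK- TECs, which carry neither colour. Here 15 of the 54 genes were lower and 10 were higher in CCL21-RANK+ TECs, against 15.2% and 14.0% of all genes tested, and 29 were not called. The median log2 fold change was -0.28 (all genes 0.06). Without CCL21-RANK+ replicate 1 the counts were 18 lower and 8 higher, and without CCL21+RANK- replicate 1, which enters only through the shared estimate of spread and scale, they were 15 and 10. CCL21-RANK- TECs had 2 libraries, and the CCL21-RANK+ libraries are the same as in the first comparison. The CCL21-RANK- libraries too entered the comparison from which the genes were chosen, which favours genes that are low in them, so these counts are not independent of the choice.

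Among type I targets, 10 of 36 were lower and 4 were higher, against 15.2% and 14.0% of all genes tested. The number higher was thus near that of genes at large. Ifi44 (log2 fold change -2.24, SE 0.12, adjusted p = 1.12e-06), Ddx58 (log2 fold change -2.14, SE 0.15, adjusted p = 4.70e-06), Xaf1 (log2 fold change -1.97, SE 0.24, adjusted p = 1.06e-04), Isg15 (log2 fold change -1.82, SE 0.18, adjusted p = 3.55e-05) and Oasl2 (log2 fold change -1.76, SE 0.12, adjusted p = 3.44e-06) fell the most. The 4 higher genes were Ifitm1 (log2 fold change 3.95, SE 0.64, adjusted p = 7.59e-04), Mx1 (log2 fold change 2.31, SE 0.53, adjusted p = 0.00545), Rsad2, the enzyme viperin (log2 fold change 1.35, SE 0.28, adjusted p = 0.0033), and Oasl1, a brake on Irf7 translation (log2 fold change 0.87, SE 0.28, adjusted p = 0.028). The Oasl1 call was lost without CCL21-RANK+ replicate 1 (0.54) and without either CCL21-RANK- replicate (0.69 and 1.07). Many targets that were lower against CCL21+RANK- TECs were not called here, such as Stat2 (-0.40), Ifit3 (-0.52), Bst2 (-0.55), Parp14 (0.00) and Zbp1 (0.39). Ifit3 (-0.70) and Bst2 (-0.66) were called lower without CCL21-RANK+ replicate 1, and Bst2 also without CCL21-RANK- replicate 1 (-0.81).

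Of the 11 GTPases, 4 were higher, all of them GBPs, and 3 were lower, all of them IRGs (14.0% and 15.2% of all genes tested). Gbp4 was 10.1-fold higher (log2 fold change 3.34, SE 0.23, adjusted p = 3.37e-06) and Gbp5 was 4.79-fold higher (log2 fold change 2.26, SE 0.17, adjusted p = 6.82e-06), with every CCL21-RANK+ library above both CCL21-RANK- libraries. Gbp9 (1.72) and Gbp6 (0.82) were the others, and Gbp6 lost its call without CCL21-RANK+ replicate 1 (0.50) or CCL21-RANK- replicate 1 (0.56). The lower IRGs were Irgm1 (-0.91), Iigp1 (-0.79) and Irgm2 (-0.76, not called at -0.55 with a minimum of 10 counts in every library), while Igtp was not called (log2 fold change 0.34, SE 0.12, adjusted p = 0.0393). The median log2 fold change of the class was 0.34.

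Of the receptors and regulators, Ifngr2, Ifnlr1, Irf1 and Socs1 were called in the same direction as in the first comparison. Ifngr2 was 2.98-fold higher (log2 fold change 1.58, SE 0.10, adjusted p = 2.30e-06) and Ifnlr1 3.04-fold lower (log2 fold change -1.60, SE 0.30, adjusted p = 0.00159) in CCL21-RANK+ TECs. Ifngr1 (log2 fold change 0.13, SE 0.17, adjusted p = 0.557), Ifnar1 (log2 fold change -0.39, SE 0.10, adjusted p = 0.00966) and Ifnar2 (log2 fold change -0.29, SE 0.12, adjusted p = 0.0737) were not called. Socs1 was higher (log2 fold change 0.99, SE 0.14, adjusted p = 3.40e-04) and Irf1 was lower (log2 fold change -1.04, SE 0.11, adjusted p = 3.53e-05).

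**Figure D5:**
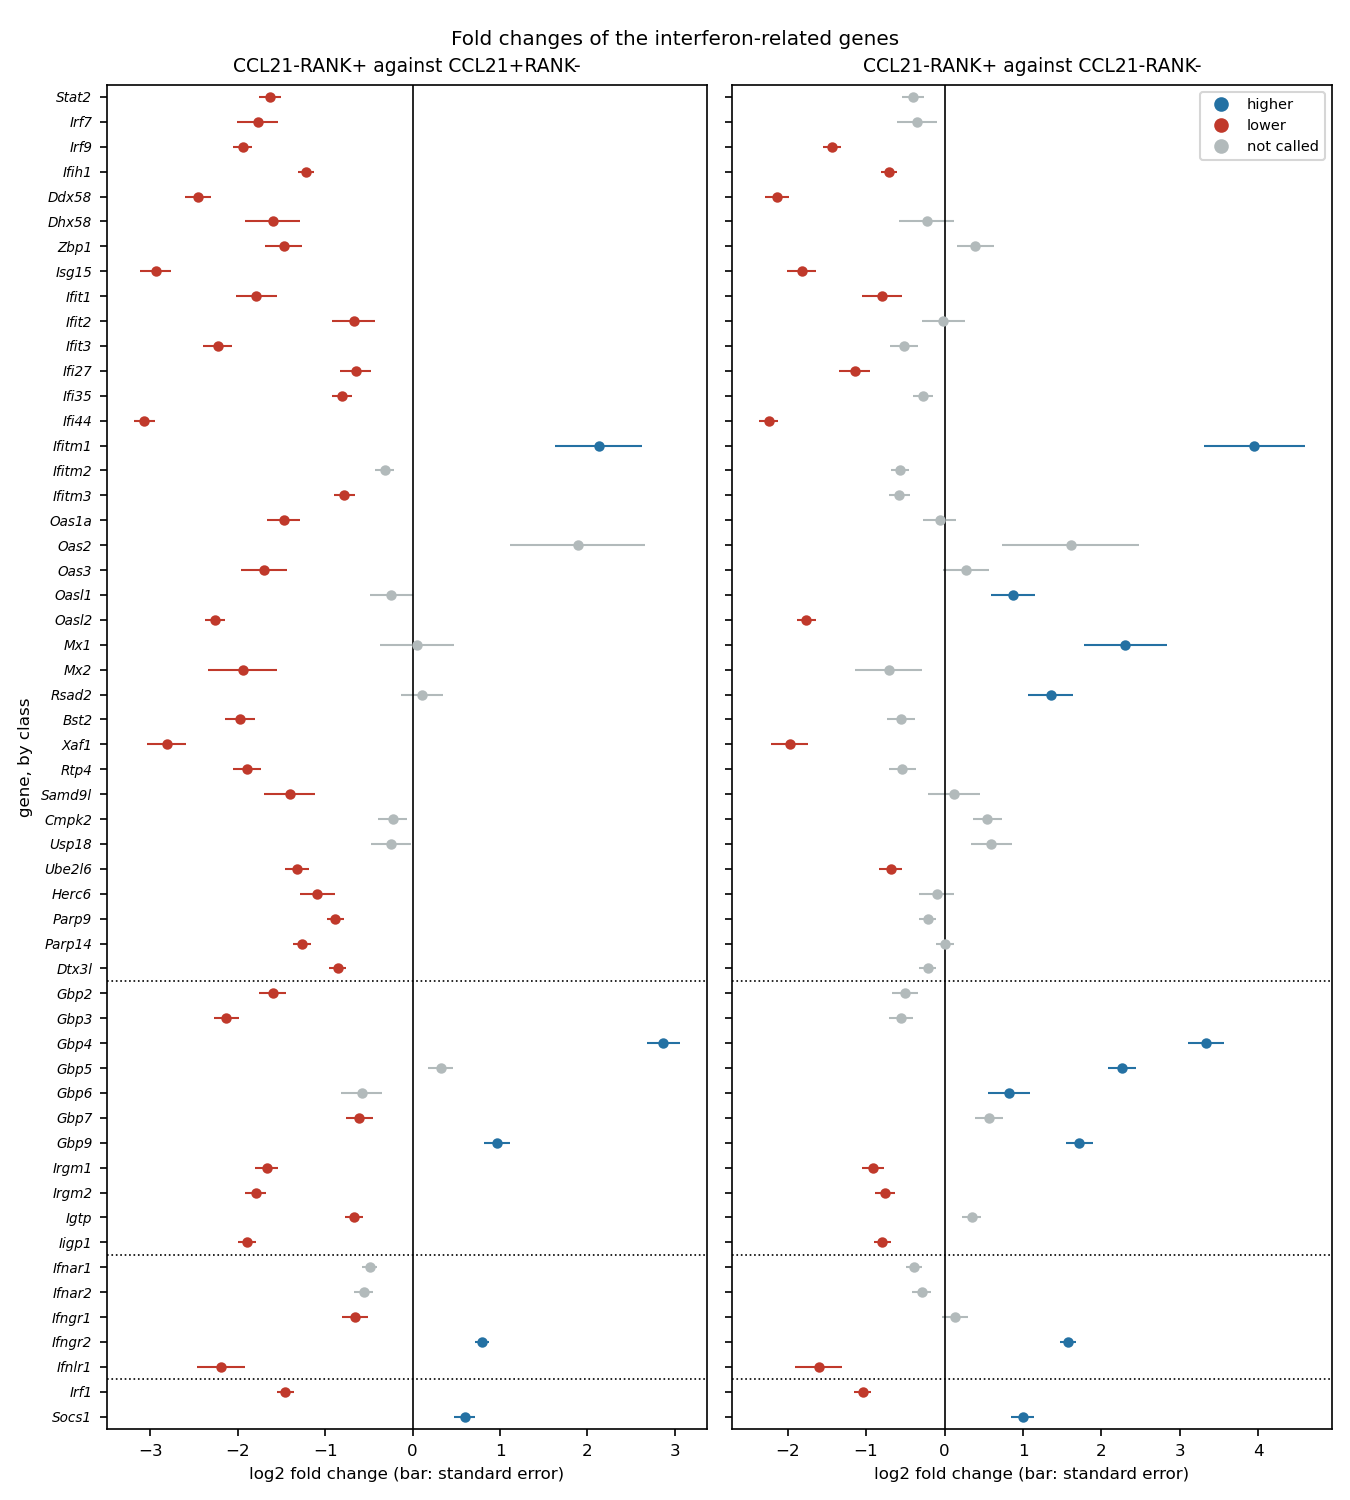
Log2 fold change (points) with its standard error (bars) for the 54 genes, by class, in CCL21-RANK+ TECs against CCL21+RANK- (left) and against CCL21-RANK- TECs (right). Blue genes were called higher (5 left, 10 right), red genes lower (38 left, 15 right) and grey genes were not called.

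The comparison of CCL21+RANK- with CCL21-RANK- TECs is the one the genes were chosen from, and its values are a description. The fitted level was past 1.5-fold higher in CCL21+RANK- TECs for 40 of the 54 genes and past 1.5-fold lower for 0, against 21.6% and 16.6% of all genes tested. Without CCL21+RANK- replicate 1 the first count was 41, and without CCL21-RANK+ replicate 1 it was 40. The median log2 fold change was 0.92 (all genes 0), and it was 0.99 for type I targets, 1.10 for GTPases and 0.59 for receptors. Mx1 (2.26), Oas3 (1.98), Gbp5 (1.94) and Zbp1 (1.87) were at the top of the range, and Ifi27 (-0.49), Oas2 (-0.28) and Ifitm2 (-0.24) were below 0. Genes with a small value here could still be far lower in CCL21-RANK+ TECs, as Ddx58 was (0.31 here, -2.45 and -2.14 in CCL21-RANK+ against the other populations). Irf1 (0.41) and Socs1 (0.40) did not pass 1.5-fold.

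Replicates differed in a way that ran across the type I targets. CCL21-RANK- replicate 2 was higher than replicate 1 for 34 of 36, against 47.1% of all genes tested. CCL21-RANK+ replicate 1 was the highest of its group for 25 of 36, against 40.6% of all genes tested, and it was also the library with the most macrophage or dendritic cell, thymocyte, B cell and mesenchyme marker RNA. Usp18 (19.9, 9.99 and 11.5 RPKM), Oasl1 (8.74, 4.49 and 5.18 RPKM) and Irf7 (11.1, 5.34 and 6.85 RPKM) show this spread over CCL21-RANK+ replicates 1 to 3. The part of other cells in it was not tested. GTPases were highest in that replicate for 6 of 11 and receptors for 0 of 5.

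The interferon genes themselves were near the floor of the assay. Of 21 listed, 14 had 0 counts in all 8 libraries, which does not show that their transcripts were absent. A further 5 had counts in CCL21-RANK+ libraries and 0 in the others. Ifnb1, for interferon beta, had 21, 14 and 3 counts there (0.439, 0.370 and 0.0898 RPKM), Ifnl2, for an interferon lambda, had 27.8, 4 and 11, and Ifnl3, Ifna13 and Ifna16 each had counts in 1 library. Ifng, for interferon gamma, had 34.0, 0 and 19 counts in CCL21-RANK+ libraries, 6 in CCL21-RANK- replicate 2 and 0 in the rest. Ifnz, at most 56.9 counts, was the exception in being found mainly in the other populations. Only 4 passed the count filter, and none was called in either comparison. All 4 stayed under 1 RPKM in every group mean. Ifnb1, Ifnl2 and Ifng passed the filter only through the CCL21-RANK+ libraries, so their counts are a description and no test is given. Whether these reads came from TECs was not tested.

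The rest of the pathway was read from 105 further genes, of which 87 could be tested. Against CCL21+RANK- TECs, 38 were lower and 15 were higher in CCL21-RANK+ TECs, and against CCL21-RANK- TECs 24 were lower and 22 were higher. Over all genes tested the shares were 15.5% and 15.0% in the first comparison and 15.2% and 14.0% in the second. Both numbers higher include Tlr9 and Ifit1bl1, which passed the count filter only through CCL21-RANK+ libraries and have no test below. These numbers higher are therefore a description. Among 6 genes of receptor signalling, 4 were lower in the first comparison. Jak1, a kinase bound to the receptors, was called lower against CCL21+RANK- TECs (log2 fold change -0.67, SE 0.10, adjusted p = 3.92e-04) and not against CCL21-RANK- TECs (0.28), and Stat3 was called higher against CCL21-RANK- TECs (log2 fold change 1.04, SE 0.17, adjusted p = 7.61e-04) and not in the other comparison (0.49).

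Irf4 and Irf5, among the other interferon regulatory factors, were higher in CCL21-RANK+ TECs in both comparisons. Irf4, known from lymphoid cells and activated by NF-kappaB, was at 5.32, 2.89 and 2.78 RPKM over the CCL21+RANK- replicates, 17.3, 21.8 and 21.6 over the CCL21-RANK+ replicates and 0.358 and 0.287 over the CCL21-RANK- pair (log2 fold change 2.46, SE 0.24, adjusted p = 2.55e-05 against CCL21+RANK-, log2 fold change 5.97, SE 0.35, adjusted p = 1.61e-06 against CCL21-RANK-). Irf5 had log2 fold changes of 1.31 and 2.88. Irf8 was lower against CCL21+RANK- TECs (log2 fold change -0.69, SE 0.15, adjusted p = 0.00296), and Irf3 was not called (-0.33 and -0.44).

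Of 12 sensors and adaptors that induce interferon, 3 were lower in CCL21-RANK+ TECs in the first comparison (15.5% of all genes tested) and 2 in the second (15.2%). Tmem173, Cgas and Ikbke were called higher in both comparisons. Tlr9, a receptor for unmethylated CpG DNA, was at 0.0597, 0.0694 and 0.0450 RPKM over the CCL21+RANK- replicates, 21.9, 16.3 and 18.9 over the CCL21-RANK+ replicates and 0.0741 and 0.0157 over the CCL21-RANK- pair. It had at most 16 counts outside CCL21-RANK+ TECs and passed the count filter through that group, so no fold change or test is given for it. Tmem173 (STING), the adaptor of cytosolic DNA sensing, was at 5.75, 5.35 and 4.32 RPKM over the CCL21+RANK- replicates, 36.7, 28.4 and 29.1 over the CCL21-RANK+ replicates and 3.54 and 3.34 over the CCL21-RANK- pair (log2 fold change 2.61, SE 0.15, adjusted p = 1.17e-06 and log2 fold change 3.19, SE 0.18, adjusted p = 1.30e-06), and Cgas, the sensor upstream of it, had log2 fold changes of 2.93 and 3.93 at 0.949, 1.27 and 0.968 RPKM in CCL21-RANK+ TECs. Ikbke, an Irf3 kinase, was higher too (1.63 and 1.60). Trim25, which activates RIG-I, and Traf3 were lower in both comparisons (Trim25 -1.01 and -0.92, Traf3 -1.04 and -0.72).

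Of 10 inhibitors, 4 were lower and 1 was higher against CCL21+RANK- TECs, beside 15.5% and 15.0% of all genes tested. Socs3, a relative of Socs1, was at 64.4, 85.2 and 42.5 RPKM over the CCL21+RANK- replicates, 22.3, 20 and 13.97 over the CCL21-RANK+ replicates and 36.5 and 47.6 over the CCL21-RANK- pair and was lower (log2 fold change -1.77, SE 0.26, adjusted p = 3.15e-04), the reverse of Socs1. Adar, which edits double-stranded RNA, was lower (log2 fold change -1.53, SE 0.11, adjusted p = 3.62e-06), as was Ptpn11 (log2 fold change -0.66, SE 0.10, adjusted p = 4.45e-04), and Rnaseh2b, a subunit of ribonuclease H2, was higher (log2 fold change 2.27, SE 0.15, adjusted p = 2.16e-06).

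Of 50 further interferon targets, 49 could be tested, and 26 were lower and 7 were higher against CCL21+RANK- TECs (18 and 12 against CCL21-RANK- TECs). Of all genes tested, 15.5% were lower and 15.0% higher in the first comparison, and 15.2% and 14.0% in the second. The numbers of targets called higher include Ifit1bl1, for which no test is given below, and are a description. Those called with a log2 fold change below -2 in either comparison were Isg20 (-3.48 and -3.42), Lgals9 (-2.90 and -2.13), Tgtp1 and Tgtp2, Phf11d (-2.56), Oas1g (-2.42), Sp100 (-2.29), Slfn5 (-2.08), Ifi27l2a (-2.08) and Trim30a (-2.05). Those above 2 included Cxcl9 (3.54 and 7.23), Epsti1 (3.85 and 5.43), Slfn2 (3.11 against CCL21-RANK-), Gbp8 and Gbp10. Ifit1bl1, with 487, 246 and 393 counts over the CCL21-RANK+ replicates and between 3 and 8 in the other libraries, passed the count filter only through the group where it is high, so no fold change is given. Cxcl9, a chemokine induced mainly by interferon gamma, was at 1.11, 1.47 and 0.484 RPKM over the CCL21+RANK- replicates, 19.6, 7.39 and 8.25 over the CCL21-RANK+ replicates and 0.0587 and 0.0952 over the CCL21-RANK- pair. Cxcl9, like the sum of macrophage or dendritic cell markers, was highest in CCL21-RANK+ replicate 1, and whether it came from TECs was not tested. Its relative Cxcl10 was more abundant and nearly level between CCL21+RANK- and CCL21-RANK+ TECs (55.4, 71.5 and 50.1 RPKM over the CCL21+RANK- replicates, 60.3, 63.1 and 50.3 over the CCL21-RANK+ replicates and 34.4 and 24.2 over the CCL21-RANK- pair). Isg20, an exonuclease, was at 121, 86.8 and 91.98 RPKM over the CCL21+RANK- replicates, 15.6, 5.77 and 5.30 over the CCL21-RANK+ replicates and 95.7 and 95.2 over the CCL21-RANK- pair, and Lgals3bp was at 74.4, 75.5 and 80.1 RPKM over the CCL21+RANK- replicates, 33.8, 24.4 and 23.1 over the CCL21-RANK+ replicates and 53.5 and 70.4 over the CCL21-RANK- pair, both lowest in CCL21-RANK+ TECs. The counts over this list, like those over the 54 genes, come from lists drawn up with these data known.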

How the data were processed

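The authors deposited a table of RSEM estimated counts per gene for 8 libraries. Per the labels, the submitters' processing notes name bcl2fastq 2.20, Trimmomatic, STAR 2.5.1 and RSEM 1.3.1 with mm10; the paper's methods name another kit and CLC Genomics Workbench, and the strand setting of the counting is not given in the sources used here. The estimated counts were rounded to whole numbers (4.47 to 5.94% of values were not whole), filtered (filterByExpr) and fitted in R 4.3.3 with edgeR 4.0.16: TMM factors, 3 group means over all 8 libraries, quasi-likelihood tests and Benjamini-Hochberg adjustment over 21451 genes. All 55450 identifiers matched GENCODE M21, whose exon lengths gave RPKM (TMM-scaled). Between replicates, counts differed beyond sampling noise. The sources call them biological replicates. The alternatives were DESeq2 1.42.0, other factors, filters, thresholds and left-out libraries, and the scripts were tested on simulated data. Named genes are the most abundant and the most changed of each class, with all receptors. Other members were named after their values were seen, to complete their families. The members and lists were chosen with earlier results of these data known. Motifs were searched in RefSeq promoters; 14 members have no entry used here. Gm26917 and Gm42418, abundant noncoding genes, took 6.89 to 19.4% and 1.47 to 10.7% of counts. Some pathway genes in the counts are not reported here by name.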

Additional observations from a re-analysis of the deposited data

How the results depend on the processing

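The counts of members called lower or higher in CCL21-RANK+ TECs stayed within 1.5 times their values under every alternative run, with 1 exception. With adjusted p under 0.05 alone as the threshold, 24 in place of 15 members were lower than in CCL21-RANK- TECs. Leaving out each library in turn gave 34 to 39 lower and 4 to 5 higher members against CCL21+RANK- TECs, 13 to 18 lower and 8 to 12 higher members against CCL21-RANK- TECs, and 38 to 41 members past 1.5-fold in CCL21+RANK- over CCL21-RANK- TECs. DESeq2 size factors moved the median log2 fold change of all genes between CCL21-RANK+ and CCL21-RANK- TECs from 0.06 to 0.20, and the members' median from -0.28 to -0.14. Differences near 0, none of them called in the fit of all libraries, turned their sign. Against CCL21+RANK- TECs these were Mx1 (-0.33 to 0.48 with a library left out) and Rsad2 (-0.20 to 0.29). Against CCL21-RANK- TECs they were Dhx58 (-0.59 to 0.23), Ifit2 (-0.28 to 0.30), Oas1a (-0.35 to 0.28), Oas3 (-0.11 to 0.49), Parp14 (-0.062 to 0.082, and -0.023 with the replicate block) and Samd9l (-0.060 to 0.27). There, the DESeq2 Wald test, DESeq2 size factors, a minimum of 10 counts in every library and upper-quartile factors gave 0.043, 0.043, 0.11 and 0.016 for Herc6, 0.14, 0.14, 0.20 and 0.11 for Ifit2, and 0.082, 0.082, 0.15 and 0.060 for Oas1a, and Ifit2 was at 0.047 without the expression filter and 0.037 without Gm26917 and Gm42418. Under some alternatives Ifngr1, Igtp, Socs1, Ifit2, Ifi27 and Gbp7 lost their calls against CCL21+RANK- TECs, and Ifit1, Ifih1, Ube2l6, Irgm2, Gbp6 and Oasl1 lost theirs against CCL21-RANK- TECs. Calls were also gained under some alternatives, by Usp18, Gbp6 and Ifnar2 (lower) against CCL21+RANK- TECs, and against CCL21-RANK- TECs by Gbp7 (0.59 to 0.77), Cmpk2 (0.59 to 0.76) and Usp18 (0.66 to 0.81) as higher and by Bst2, Ifit3, Irf7, Gbp3, Ifitm2 and Ifitm3 (-0.81 to -0.59) as lower. The cause was not tested. The CCL21-RANK- group has 2 libraries, which limits its precision. CCL21+RANK- and CCL21-RANK+ libraries of the same number correlated at 0.127, 0.0286 and 0.0756 in their deviations from the group means. Those of different numbers were at -0.120 to 0.0599. The numbers were not taken as pairs, but these values do not settle whether the libraries were paired. With a replicate block, 38 members were lower and 5 higher against CCL21+RANK- TECs, and 16 lower and 11 higher against CCL21-RANK- TECs, and not every library correlated best with its own number.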
